A study of Saccharomyces cerevisiae BY4741 with 16 samples.

Results

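H3K4me3 and H3K36me3, trimethylation of histone H3 at lysines 4 and 36, were compared gene by gene in budding yeast at 60 min after rapamycin, the latest time sampled after RNA polymerase II (RNAPII) had been directed out of the nucleus. The comparison took in the 5218 genes with a value for both marks at all 4 times, of 5218 such genes in the series' gene table, and no measured value was used to choose them. It answers which genes still carried either mark or both at the late time, by level and by rank.

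The cells were log-phase cultures of *Saccharomyces cerevisiae* grown in YPD, from the strain labelled BY4741 Anchor-Away. Every group shares a MATa genotype with his3D1, leu2D0, ura3D0, tor1D1 and fpr1D, and with RPL13-2xFKBP12-NATMX6 as the anchor, a ribosomal protein that carries a tagged nuclear protein to the cytoplasm when rapamycin joins them. The labels name no tagged polymerase subunit, so the removal of RNAPII is taken from the stated design. The groups differ in mark and in time, the latter 0, 20, 40 or 60 min from the addition of 1 ug/mL rapamycin. Each mark has 1 library per time, and *Schizosaccharomyces pombe* cells were added at 25% as a spike-in.

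H3K4me3 is laid down by Set1 within the COMPASS complex, which travels with early elongating polymerase, and it lies mainly at the 5′ ends of transcribed genes. H3K36me3 is laid down by Set2, which binds the phosphorylated tail of elongating polymerase, and it lies along gene bodies. Both marks are removed by demethylases, among them Jhd2 for lysine 4 and Rph1 for lysine 36, and are diluted when new histones are put in.

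Each mark was read in a single library at each time, without replicates, and every difference given here describes those libraries and was not tested. A level is the deposited signal per gene, whose unit differs between the marks, and its depth is unknown because no read counts are given. The marks are therefore set side by side by percentile, the rank of a gene within its library on a scale of 0 to 100. The mating-type genes went with the MATa label in part. *STE2*, the pheromone receptor of MATa cells, stood at the 84.1 percentile of H3K4me3 and the 90.8 percentile of H3K36me3 at 60 min. *STE3*, the receptor of the other mating type, stood at 1.40 and 0.958, while *SAG1*, the agglutinin of that type, stood at 5.02 and 73.7. The 4 MATa-specific genes measured had median percentiles of only 16.7 and 10.4, and the 2 of the other type 3.21 and 37.3. *FPR1*, which the genotype label gives as deleted, was still listed with H3K4me3 levels of 2.26, 1.34, 3.86 and 1.04 and H3K36me3 levels of 1.21, 0.0335, 0.240 and 0.185 at 0, 20, 40 and 60 min.

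Genes of chromosome XI split by strand, most widely in H3K36me3 along 1 stretch that was also low in H3K4me3. The stretch runs from *PGM1* (chrXI:203541-205253, sacCer3) to the right end and holds 192 genes, 3.68% of all, and its border was set after the values were seen. Its 98 genes named W, which are read from the Watson strand, had median percentiles of 8.66 in H3K4me3 and 10.3 in H3K36me3 at 60 min. Its 94 genes named C, read from the other strand, had medians of 25.9 and 81.1. On the other chromosomes the W genes had medians of 51.0 and 50.1 and the C genes 51.4 and 50.5, with strands less than 1 percentile point apart there. Over those 15 chromosomes taken singly, the W median minus the C median lay between -9.26 and 6.97 percentile points in H3K36me3 and between -23.5 and 14.4 in H3K4me3. The split was already present at 0 min, when the W genes of the stretch stood at a median of 13.7 in H3K36me3 and the C genes at 76.3. Left of *PGM1* the 38 W genes of chromosome XI had medians of 70.1 and 73.9 and the 42 C genes 44.9 and 32.0, a split in the other direction that was also wider than on any other chromosome. What lies behind the splits was not tested, so the position of its genes is named beside them and the counts below are also given without it, with ranks taken anew.

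**Figure D1:**
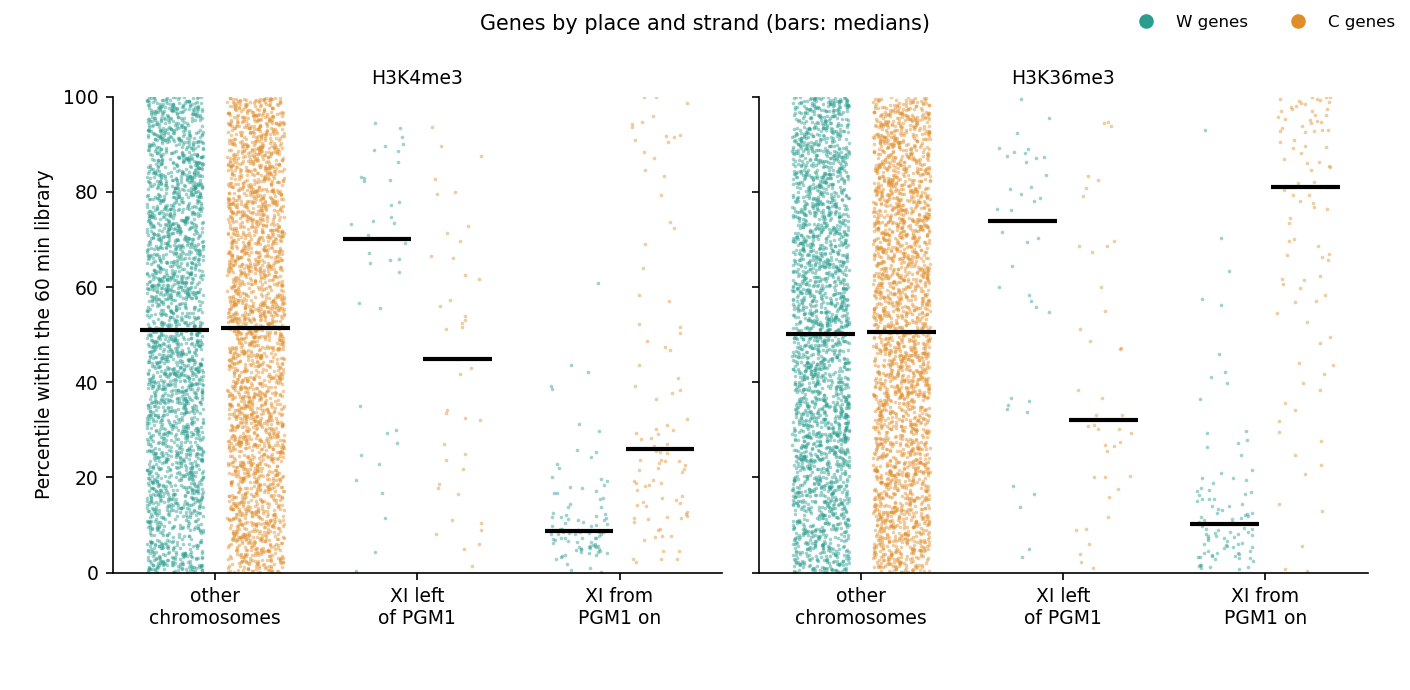
Each point is a gene, and the vertical axis is its percentile within the H3K4me3 (left) or H3K36me3 (right) library at 60 min, with W and C genes apart and bars at the medians. From *PGM1* to the right end of chromosome XI the medians are 8.66 (W) and 25.9 (C) in H3K4me3 and 10.3 and 81.1 in H3K36me3, against values near 50 for both strands on the other chromosomes.

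Genes high in 1 mark were mostly high in the other at 60 min. Of the 5218 genes, 808 (15.5%) stood in the top 25% of both marks and 858 (16.4%) in the bottom 25% of both. Only 22 genes (0.422%) stood in the top 25% of H3K4me3 and the bottom 25% of H3K36me3, and 85 (1.63%) showed the opposite. The percentiles of the marks lay within 10 points of each other for 44.8% of genes, and more than 50 points apart for 229 genes, of which 179 ranked higher in H3K36me3. Spearman's rho across genes was 0.687 at 60 min, beside 0.731 at 0 min, 0.713 at 20 min and 0.688 at 40 min. The points share their libraries and their gene lengths, and genes are not independent replicates. Without the chromosome XI stretch the 4 counts were 779, 832, 21 and 75, and rho was 0.693. Off chromosome XI altogether, with ranks as they were, the counts were 777, 762, 22 and 72.

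**Figure D2:**
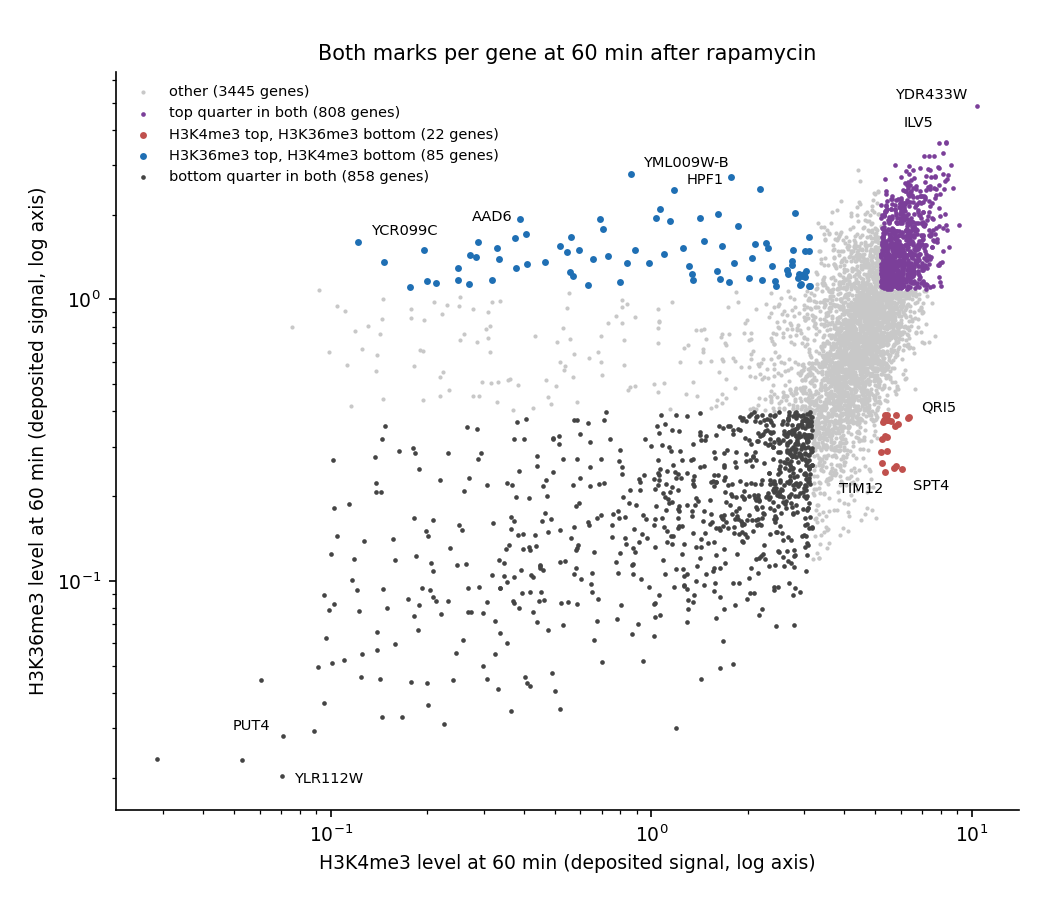
Each point is 1 of 5218 genes, placed by its H3K4me3 level (horizontal) and H3K36me3 level (vertical) at 60 min, both on log axes of deposited signal, and coloured by the 4 classes of rank. The 22 genes at the lower right have high H3K4me3 and low H3K36me3, and the 85 at the upper left, which reach far lower H3K4me3 levels, have the reverse.

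The classes held most of the same genes at the neighbouring time. Of the 808 genes high in both marks at 60 min, 654 (80.9%) were in that class at 40 min, which is 84.8% of the 771 genes then in it, and 612 were in it at 0 min. For the 858 genes low in both, 789 were shared with 40 min and 672 were in the class at all 4 times. The 85 genes high in H3K36me3 and low in H3K4me3 shared 66 with 40 min and 46 with 0 min. The small class high in H3K4me3 and low in H3K36me3 shared 12 of its 22 genes with 40 min and 3 with 0 min. In this class 1 gene was present at all 4 times. It held 5 genes at 0 min, 12 at 20 min and 20 at 40 min.

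By level rather than rank, fewer genes stood high in both marks at 60 min. The median level was 4.27 in H3K4me3 and 0.700 in H3K36me3, against 4.91 and 1.08 at 0 min. At 60 min 928 genes (17.8%) lay at or above the 0 min medians of both marks, compared with 2035 (39.0%) at 0 min itself. A further 764 genes reached the 0 min median of H3K4me3 alone and 390 that of H3K36me3 alone. A single scale factor per library would change these level counts and leave the percentiles as they are.

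The gene highest in both marks was *YDR433W*, whose systematic name is next to that of *NPL3*, a gene for an RNA-binding protein of mRNA export. *YDR433W* had H3K4me3 levels of 7.69, 9.56, 9.79 and 10.4 and H3K36me3 levels of 7.92, 3.42, 4.19 and 4.89 at 0, 20, 40 and 60 min. It has no entry in the R64 gene table, so its place and overlaps are not given here. *NPL3* itself (chrIV:1328783-1330027) had H3K4me3 levels of 7.07, 8.19, 7.61 and 7.20, with H3K36me3 at 5.72, 2.80, 3.08 and 2.75. Both loci held their H3K4me3 while their H3K36me3 was much lower from 20 min on.

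The other genes at the top of both marks encode metabolic enzymes, regulators and a cell wall protein. *ILV5* (chrXII:838066-839253), an enzyme of branched-chain amino acid synthesis, showed 7.95, 9.27, 8.83 and 8.29 in H3K4me3 beside 4.77, 3.27, 3.72 and 3.64 in H3K36me3. *GCN4* (chrV:138918-139763), the activator of amino acid synthesis genes, read 7.65, 7.74, 9.89 and 8.14 for H3K4me3 while H3K36me3 read 2.99, 2.68, 3.65 and 3.31. Its 60 min level was above its 0 min level in both marks, while *ILV5* was above it in H3K4me3 alone. *MIG2* (chrVII:95858-97006), a repressor of genes under glucose control, had H3K4me3 levels of 7.10, 7.53, 8.36 and 7.92, with H3K36me3 at 4.53, 2.42, 2.54 and 3.59. *SRL1*, a cell wall mannoprotein, and *CLG1*, a cyclin-like partner of the Pho85 kinase, stood at 8.10 and 8.41 in H3K4me3 and at 2.79 and 2.76 in H3K36me3 at 60 min. *DEF1* (chrXI:336537-338753), which acts in degradation of stalled RNAPII, and *FBA1* (chrXI:326408-327487), fructose-bisphosphate aldolase, also ranked here, and both are C genes of the chromosome XI stretch. *DEF1* had 60 min levels of 8.64 and 3.0, and *FBA1* 8.29 and 3.60.

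The genes highest in H3K4me3 were also high in H3K36me3, though not in the same order. Beside *YDR433W* and *DEF1*, the highest H3K4me3 levels at 60 min were those of *MIX17* at 9.13, *SNT1* at 8.74 and *ZEO1* at 8.48. *SNT1*, a subunit of the Set3 histone deacetylase complex, stood at the 99.2 percentile of H3K36me3, *MIX17*, a mitochondrial protein, at 95.4, and *ZEO1*, a plasma membrane protein, at 90.7.

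The 22 genes with high H3K4me3 and low H3K36me3 were mostly short. The 21 with a length in the R64 table had a median of 429 bp against 1230 bp for all genes, and 66.7% were under 600 bp against 15.7% of all. *SPT4* (chrVII:617516-617824), a subunit of an RNAPII elongation factor, had the widest gap, with H3K4me3 of 6.05, 6.04, 5.79 and 6.07 and H3K36me3 of 0.511, 0.338, 0.354 and 0.250. *TIM12* (chrII:427155-427484), a mitochondrial import protein, showed 5.59, 5.47, 6.57 and 5.79 in H3K4me3 beside 0.457, 0.316, 0.336 and 0.255 in H3K36me3. For both genes H3K4me3 at 60 min was at or slightly above its 0 min level, and H3K36me3 was below its own median in all 4 libraries. *GON7*, a subunit of the KEOPS tRNA modification complex, stood at 5.74 and 0.253 at 60 min, and *SOH1*, a Mediator subunit, at 5.88 and 0.360. *MGR2*, part of the mitochondrial inner membrane translocase, stood at 5.77 and 0.355, *CDD1*, cytidine deaminase, at 5.34 and 0.244, *QRI5* at 6.33 and 0.379, and *IRC21* at 6.35 and 0.382. *RPC10*, a small subunit shared by the nuclear RNA polymerases, belonged to the class with 5.20 and 0.287. None of the 22 lay on the chromosome XI stretch, and without it 13 of 20 were under 600 bp.

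Gene length went weakly with both marks. Spearman's rho across the 5115 genes with a length was 0.173 for H3K4me3 and 0.211 for H3K36me3 at 60 min. The shortest 20% of genes, up to 672 bp, had median percentiles of 38.8 in H3K4me3 and 30.1 in H3K36me3, and the longest 20% had 60.6 and 57.1. Of the 21 genes of known length high in H3K4me3 and low in H3K36me3, 15 were in the shortest 20%. When percentiles were taken within each 20% of length, the class held 7 genes in place of 22. Neither the part of a gene over which signal was summed nor a division by length is stated in the sources used here.

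The 85 genes with high H3K36me3 and low H3K4me3 covered a wider range of genes and places. *HPF1* (chrXV:28703-31606), a cell wall mannoprotein, read 0.899, 1.12, 1.06 and 1.17 for H3K4me3 while H3K36me3 read 2.56, 1.98, 2.82 and 2.44. *CSS1* (chrIX:23119-26106) had H3K4me3 levels of 0.705, 0.923, 0.780 and 0.692, with H3K36me3 at 2.10, 2.31, 2.64 and 1.94. *AAD6* (chrVI:14305-15431), a member of the aryl-alcohol dehydrogenase family, showed 0.427, 0.455, 0.378 and 0.405 in H3K4me3 beside 1.93, 1.72, 2.10 and 1.71 in H3K36me3. Each of these genes lies near a chromosome end, with H3K4me3 far under its median throughout. H3K36me3 at 60 min was 95.7% of its 0 min level for *HPF1*, 92.3% for *CSS1* and 88.5% for *AAD6*. These genes fell below the low-value filter used for the changes further on, which 47 of the 85 passed. Of the 71 genes of the class in the R64 table, 15 (21.1%) lay within 30 kb of the outermost gene of their chromosome, against 3.79% of all genes. In the same class 9.86% overlapped another annotated gene, against 1.99% of all, and 14 of the 85 (16.5%) had no R64 entry, against 1.97% of all. Among these unmatched loci were *YML009W-B*, with 60 min levels of 0.864 and 2.80, *YFR009W-A* with 0.389 and 1.94, *YBR121C-A* with 1.06 and 2.09, and *YIL047C-A* with 0.289 and 1.60. Their overlaps are not known here.

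Of the gene lists, the class held 3 of 136 ribosomal protein genes and 1 of 72 amino acid synthesis genes, beside 1.63% of all genes. It also held 1 gene each of the chaperone (34 genes), general stress (31), meiosis (8), subtelomeric (12) and glucose-repressed (16) lists. *ADH2*, the glucose-repressed alcohol dehydrogenase, stood at 0.709 and 1.78 at 60 min, at percentiles of 6.02 and 94.9. *SSA3*, a heat-induced Hsp70, stood at 0.195 and 1.5, and *SMK1*, a kinase of spore formation, at 0.559 and 1.25. For *SMK1* the H3K36me3 levels were 1.21, 0.932, 1.28 and 1.25 over the 4 times, with 60 min above 0 min. *ACT1*, the actin gene, and the ribosomal protein genes *RPL6A*, *RPL6B* and *RPL26B* were in the class too, named after their values were seen. *ACT1* read 3.53, 3.35, 2.76 and 2.43 for H3K4me3 while H3K36me3 read 2.27, 1.40, 1.56 and 1.16. Both marks were lower at 60 min than at 0 min, and *ACT1* lay in the bottom 25% of H3K4me3 already at 0 min, at a percentile of 22.6 against 15.9 at 60 min. Another 12 of the 85 genes lay on the chromosome XI stretch. Without that stretch the class held 75 genes, 22.6% of the mapped ones within 30 kb of an outermost gene and 17.3% without an R64 entry.

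**Figure D3:**
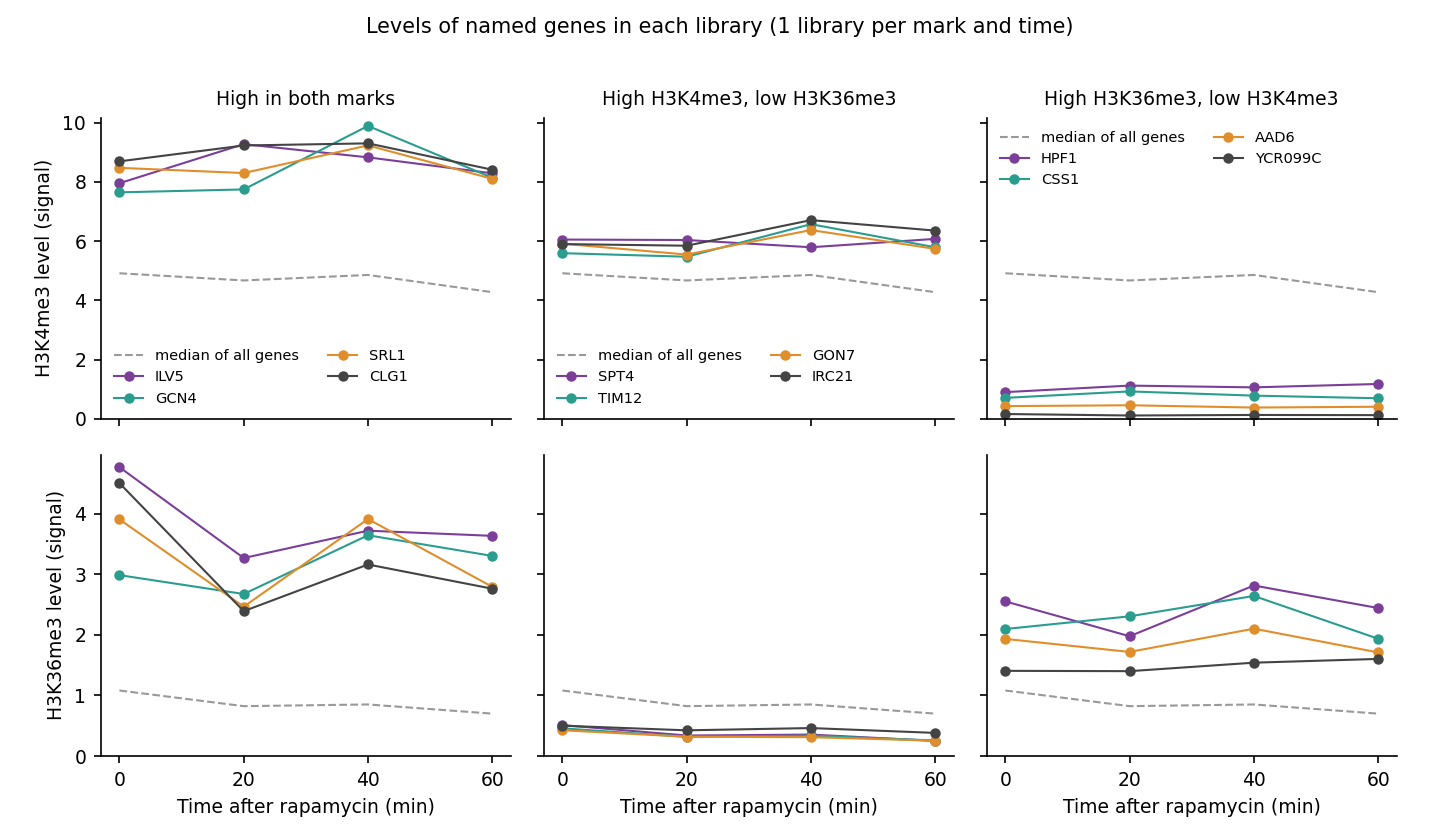
H3K4me3 (top) and H3K36me3 (bottom) levels in deposited signal are drawn against time after rapamycin in min for 12 genes from 3 classes, each point being 1 library, with the median of all genes dashed. *SPT4*, *TIM12*, *GON7* and *IRC21* stay above the H3K4me3 median and under the H3K36me3 median at every time, and *HPF1*, *CSS1*, *AAD6* and *YCR099C* do the reverse.

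Genes low in both marks included a nutrient permease, unnamed loci and many members of the repressed gene lists. *PUT4*, the proline permease, had H3K4me3 levels of 0.0938, 0.0760, 0.115 and 0.0709, with H3K36me3 at 0.0232, 0.0312, 0.0394 and 0.0281. *YLR112W* stood at 0.0703 and 0.0202 at 60 min, *YCR025C* at 0.0529 and 0.0231, and *YPL025C* at 0.0286 and 0.0232. *PUT4* was low in all 8 libraries, the 0 min ones included. Of the 858 genes low in both marks, 85 lay on the chromosome XI stretch, which holds 3.68% of all genes. They were 44.3% of the genes of the stretch, against 15.4% of genes on the other chromosomes.

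Of 23 gene lists, 7 had median percentiles above 70 in both marks at 60 min. Chaperone genes, whose products fold proteins, had median percentiles of 83.2 in H3K4me3 and 90.5 in H3K36me3, and 21 of 34 (61.8%) were in the top 25% of both, beside 15.5% of all genes. *SIS1*, an Hsp40 co-chaperone, was the chaperone gene highest in both, with 60 min levels of 7.69 and 2.73. The 12 genes for RNAPII subunits had medians of 83.5 and 82.7, with 6 in the top 25% of both, led by *RPO21*, the largest subunit, at 7.90 and 2.93. Translation factors (39 genes) had medians of 78.2 and 86.6, ribosome biogenesis genes (74) 78.1 and 79.4, proteasome genes (32) 75.6 and 81.5, cell wall genes (32) 74.9 and 85.6, and vacuolar ATPase genes (17) 77.1 and 76.0. The rRNA methyltransferase gene *NOP1*, at 7.83 and 2.95, led ribosome biogenesis, and the RNA helicase gene *DED1*, at 7.74 and 2.47, led the translation factors. All these lists had medians above 50 in both marks at 40 min as well as at 60 min, though not all were above 70 earlier. Vacuolar ATPase genes had H3K36me3 medians of 55.3 at 0 min and 69.6 at 40 min. Cell wall genes had H3K4me3 medians of 60.1 at 0 min and 63.1 at 20 min.

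**Figure D4:**
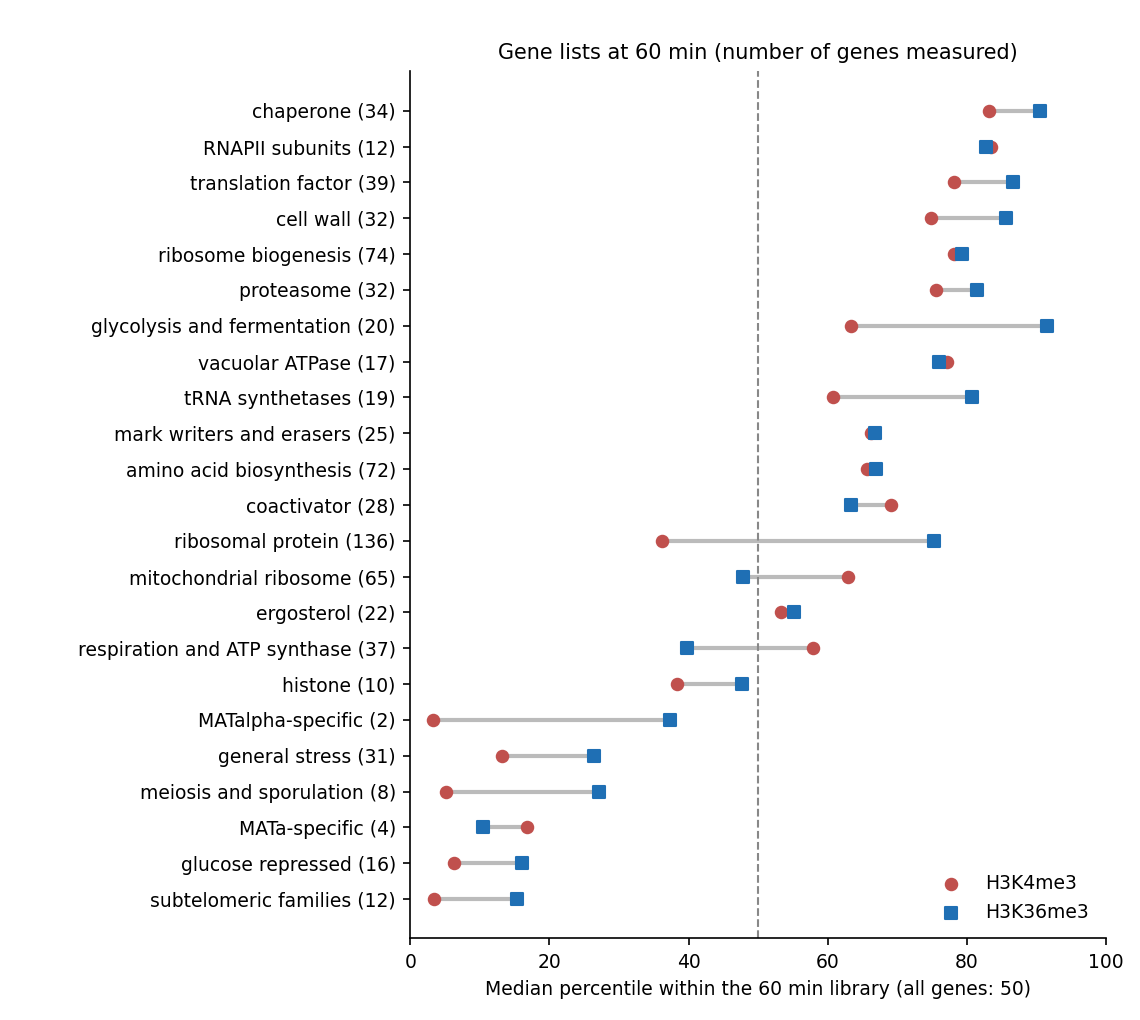
For each gene list (number of genes measured in brackets), the circle is the median percentile in H3K4me3 and the square that in H3K36me3 at 60 min, with 50 as the value of all genes. Ribosomal protein genes span 36.2 to 75.3, glycolysis and fermentation genes 63.4 to 91.5, and the mitochondrial ribosome lies on the other side, with 63.0 in H3K4me3 and 47.8 in H3K36me3.

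Ribosomal protein genes carried high H3K36me3 with moderate H3K4me3. Their 136 genes had median percentiles of 36.2 and 75.3 at 60 min, and 127 of them ranked higher in H3K36me3, as did 44.7% of all genes. The same order was there at 0 min, with medians of 43.6 and 80.9. *RPL2A* stood at the 31.9 percentile of H3K4me3 and the 94.2 percentile of H3K36me3, and *RPL15B*, with 83.7 and 62.8, was the member with the largest difference the other way. *RPS22B*, which overlaps another annotated gene, was highest in both, with 60 min levels of 7.64 and 2.49. Glycolysis and fermentation genes (20) had medians of 63.4 and 91.5, and 18 of 20 ranked higher in H3K36me3, beside the same 44.7% of all. *PFK2*, a subunit of phosphofructokinase, stood at 26.6 and 75.6, while *GLK1*, glucokinase, stood at 56.6 and 35.6. Aminoacyl-tRNA synthetase genes (19) had medians of 60.8 and 80.7. Amino acid synthesis genes (72) and ergosterol synthesis genes (22) had medians closer together, with 65.7 and 67.0 for the former and 53.3 and 55.2 for the latter, and 43 of the 72 and 11 of the 22 ranked higher in H3K36me3.

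Genes for the mitochondrial ribosome leaned the opposite way. The 65 genes had medians of 63.0 in H3K4me3 and 47.8 in H3K36me3, and 51 ranked higher in H3K4me3, as did 55.2% of all genes. *MRPL23* stood at 92.1 and 35.3, and *MRP20*, at 99.1 and 92.3, was high in both. Respiration and ATP synthase genes (37) had medians of 57.9 and 39.8, and 22 of the 37 ranked higher in H3K4me3, a share near that of all genes. *SDH4*, a subunit of succinate dehydrogenase, stood at 86.6 and 31.7, and *QCR6*, a subunit of the cytochrome bc1 complex, at 32.3 and 93.8. The median length was 654 bp for mitochondrial ribosome genes and 468 bp for respiration genes, against 1230 bp for all. With percentiles taken within each 20% of length the medians lay closer, at 68.0 and 58.8 for the mitochondrial ribosome and at 65.7 and 59.8 for respiration. Coactivator genes (28), which are longer, leaned slightly the same way with 69.1 and 63.4, and 22 of the 28 ranked higher in H3K4me3, beside 55.2% of all genes.

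The list of genes that write and erase the marks, with the factors they act with, had medians above 50 in both. The 25 genes had medians of 66.3 and 66.8, and 6 were in the top 25% of both (24%), beside 15.5% of all genes. *SET1*, the lysine 4 methyltransferase, showed 6.44, 6.47, 6.42 and 5.12 in H3K4me3 beside 1.40, 1.43, 1.24 and 0.945 in H3K36me3. *SET2*, the lysine 36 methyltransferase, read 5.68, 5.51, 5.74 and 5.05 for H3K4me3 while H3K36me3 read 2.79, 1.35, 1.61 and 1.23. For *SET1* both marks were lowest at 60 min, and for *SET2* H3K36me3 was already near its 60 min level at 20 min. *JHD2*, the lysine 4 demethylase, was near the bottom of both, at percentiles of 9.31 and 1.69, and *RPH1*, a lysine 36 demethylase, stood at 40.9 and 45.5. *SIN3*, the scaffold of the Rpd3 deacetylases, was highest in both, with 6.19 and 1.98.

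Lists of genes that are low in rich glucose medium had low median percentiles in both marks, and the lower median in H3K4me3. The general stress list (31 genes) had medians of 13.2 and 26.4 with 14 genes in the bottom 25% of both, against 16.4% of all genes. Glucose-repressed genes had medians of 6.23 and 16.0 over the 16 of 32 listed genes that were measured. The 12 subtelomeric family genes measured, of 63 listed, had 3.33 and 15.3, and the 8 meiosis and sporulation genes measured, of 50 listed, had 5.13 and 27.1. These lists were measured in part, and their medians speak only for the genes in the table. *MDH2*, a malate dehydrogenase of gluconeogenesis, was the glucose-repressed gene highest in both marks, at 94.0 and 92.8. Others of that list were high in H3K36me3 alone, such as *ICL1*, isocitrate lyase, at 28.3 and 95.2, and *GAL1*, galactokinase, at 0.172 and 74.8. Of the 16 genes 8 ranked higher in each mark, and 9 were in the bottom 25% of both.

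Against their own 0 min levels, most genes had less of both marks at 60 min. These changes were read over 4657 genes past a filter on low values, with a mean over the 4 times of at least 25% of the median of such means in both marks. The median log2 change was -0.18 in H3K4me3 and -0.66 in H3K36me3, which leaves 88.0% and 63.1% of the 0 min level. H3K4me3 was at or above its 0 min level for 516 genes (11.1%), H3K36me3 for 191 (4.1%) and both for 63 (1.35%). H3K36me3 was under 50% of its 0 min level for 822 genes (17.7%), and H3K4me3 for 6 (0.129%). Of the 516 genes that held H3K4me3 at or above 0 min, 70 (13.6%) had H3K36me3 under 50%, beside 17.7% of all. These 70 are 1.5% of the genes past the filter. No gene (0%) showed the opposite, for which only the 6 genes with H3K4me3 under 50% could count. Without the chromosome XI stretch these counts were 507, 183, 60, 795, 6 and 69.

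Those counts rest on the scale of the libraries. Scaling each library to its lowest 5% of genes shifted the median change by 0.30 in H3K4me3 and 0.61 in H3K36me3 on the log2 scale, and 1702 genes then lay at or above 0 min in both marks. The changes of single genes below are therefore also given relative to the median change of their mark, written as relative log2 values, which a single scale factor leaves almost as they are. Across genes the changes of the marks were only weakly related, with a Spearman's rho of 0.181, and both changes were taken from pairs of single libraries.

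**Figure D5:**
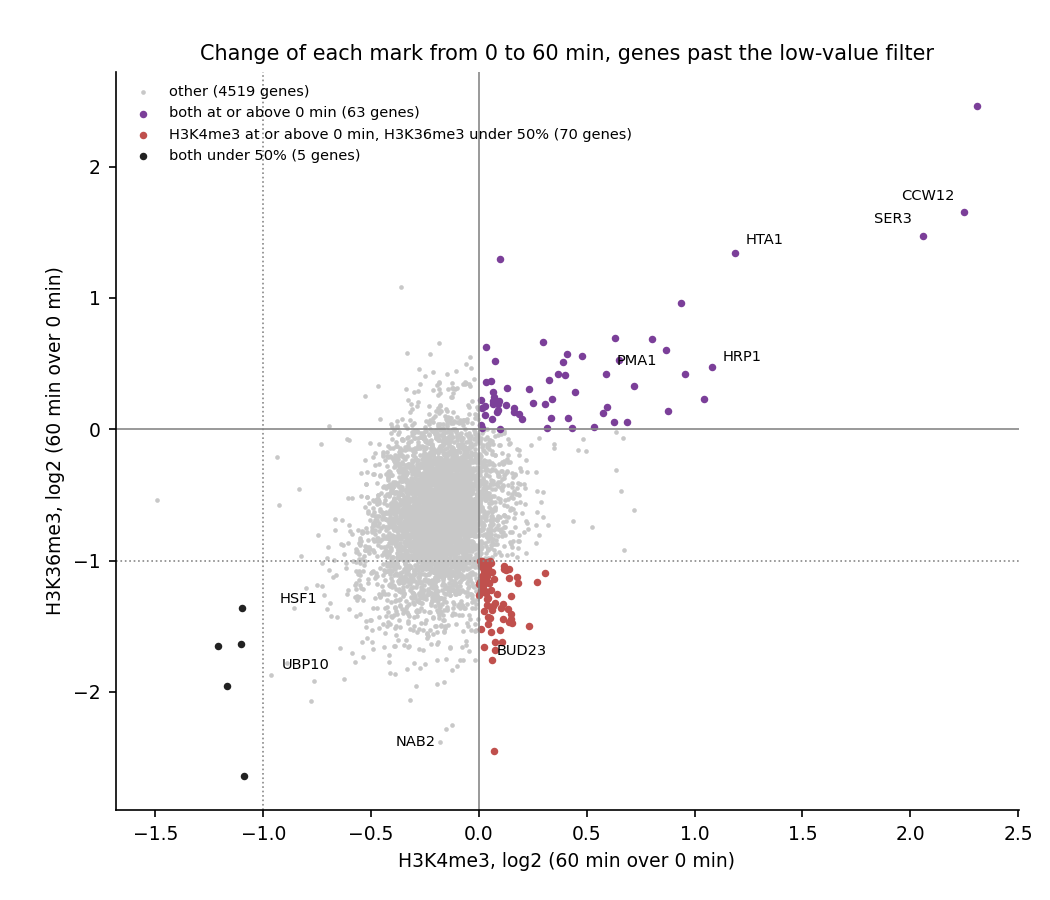
Each point is 1 of 4657 genes, placed by its log2 change from 0 to 60 min in H3K4me3 (horizontal) and H3K36me3 (vertical), with solid lines at no change and dotted lines at 50% of the 0 min level. The 63 genes at or above 0 min in both marks spread to the upper right, and the 70 genes with H3K4me3 held and H3K36me3 under 50% lie below the lower dotted line, close to the solid vertical line.

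Among genes that started at or above the median of both marks, *PMA1*, the plasma membrane proton pump, ranked first by the smaller of its relative changes in the marks. *PMA1* (chrVII:479910-482666) had H3K4me3 levels of 5.07, 6.20, 8.71 and 7.66, with H3K36me3 at 2.04, 2.35, 3.53 and 2.74, with relative log2 values of 0.77 and 1.08. *NRD1* (chrXIV:172588-174315), a factor in termination of short noncoding transcripts, showed 5.14, 5.32, 7.69 and 7.46 in H3K4me3 beside 2.70, 2.15, 3.43 and 2.73 in H3K36me3. For both genes H3K4me3 was highest at 40 min and H3K36me3 ended above its 0 min level. *TSA1*, a thioredoxin peroxidase, had 60 min levels of 6.38 and 1.67 against 4.94 and 1.24 at 0 min, with relative log2 values of 0.55 and 1.08. *GLN1*, glutamine synthetase, had 6.49 and 2.35 against 5.12 and 2.01, and *MCA1*, the yeast metacaspase, had 7.95 and 1.34 against 6.68 and 1.17. *FBA1*, on the chromosome XI stretch, completed the set with relative log2 values of 0.46 and 0.59.

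Of the 63 genes at or above 0 min in both marks, 9 (14.3%) were at or above the median of both marks at 0 min, beside 43.7% of the genes past the filter. A low 0 min level favours being counted here, so this share describes the choice as well as the genes. At 60 min 19 of them (30.2%) stood in the top 25% of both, beside 17.4%. The 63 were chosen by their 60 min levels too, so the choice favours this share as well. Of the 63, 54 were also at or above 0 min in both marks at 40 min, where 373 of 4657 genes (8.01%) were. At 20 min 22 of the 63 were, and the share over all genes is not given here. Both comparisons use the 0 min libraries by which the 63 were chosen, so they are not independent of that choice. Genes picked after their values were seen show how wide such changes were. *SER3* (chrV:322686-324095), an enzyme of serine synthesis that overlaps another annotated gene, read 1.45, 2.99, 5.95 and 6.18 for H3K4me3 while H3K36me3 read 0.739, 0.985, 1.98 and 2.07. *CCW12* (chrXII:369697-370098), a cell wall mannoprotein, had H3K4me3 levels of 1.25, 2.30, 5.89 and 6.13, with H3K36me3 at 0.444, 0.424, 1.18 and 1.42. Both genes went from low H3K4me3 at 0 min to the top 10% of that mark at 60 min, with the widest step between 20 and 40 min. *HRP1*, a cleavage and polyadenylation factor, showed 3.47, 5.27, 7.20 and 7.40 in H3K4me3 beside 1.55, 1.90, 2.52 and 2.15 in H3K36me3. The unmatched locus *YMR013W-A* had 60 min levels of 1.95 and 0.761 against 0.354 and 0.129 at 0 min, the widest log2 change of the 63 in each mark (2.31 and 2.47). It passed the filter through its later libraries, as did *HTA1*, *PST1*, *MMS2* and *YLR286W-A*, and a gene that passes in this way had to be higher late than at 0 min.

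Histone and cell wall genes had a larger share among these than all genes did. Of 10 histone genes, all past the filter, 7 held H3K4me3 and 4 held both marks at or above 0 min, where the shares over all genes were 11.1% and 1.35%. *HTA1*, which encodes histone H2A, read 1.60, 2.15, 3.31 and 3.70 for H3K4me3 while H3K36me3 read 0.204, 0.339, 0.480 and 0.536. *HTA2*, *HHF1* and *HHT1* were the others, and *HTZ1*, the gene of the variant H2A.Z, stood at 7.90 and 1.20 against 8.22 and 2.14. Of 28 cell wall genes past the filter, 13 held H3K4me3 and 6 held both marks, among them *UTR2*, *SUN4* and *EXG1*. *HTA1* and the cell wall gene *PST1* are among the genes that passed the filter through later libraries. Amino acid synthesis genes also had 4 members with both marks at or above 0 min, of 70 past the filter. *ECM33*, another cell wall gene, was under 50% of its 0 min level in both marks. With libraries scaled to their sums, 8 of the 10 histone genes and 12 of the 28 cell wall genes were at or above 0 min in both marks, where 1265 of the 4657 genes were. General stress genes held H3K4me3 in 10 of 18 and both marks in 2 of 18.

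Among genes that started high, 6 had the lowest relative values in both marks by the larger of their values. *UBP10* (chrXIV:289498-291876), a protease that removes ubiquitin from histone H2B, had H3K4me3 levels of 6.22, 4.78, 3.90 and 3.16, with H3K36me3 at 3.24, 1.82, 1.55 and 0.879. *SWR1* (chrIV:1135932-1140476), the ATPase that puts H2A.Z into nucleosomes, showed 6.15, 6.33, 4.87 and 3.71 in H3K4me3 beside 1.90, 1.23, 1.24 and 0.789 in H3K36me3. *HSF1* (chrVII:368753-371254), the heat shock transcription factor, read 6.38, 5.14, 5.24 and 3.90 for H3K4me3 while H3K36me3 read 1.87, 1.13, 1.27 and 0.717. All 3 had their lowest level of each mark at 60 min. *SND1*, a factor in targeting proteins to the endoplasmic reticulum, *ARO7*, chorismate mutase, and *YML018C* completed the set, with relative log2 values in H3K4me3 of -0.58, -0.54 and -0.62 in that order.

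Only 5 genes (0.107%) were under 50% of 0 min in both marks, and they are named after their values were seen. They were *ECM33*, *SWM1*, *PDR8*, *TOP1* and *FPR1*, the last of which the strain label gives as deleted. *TOP1*, topoisomerase I, had H3K4me3 levels of 4.57, 3.71, 2.81 and 2.10, with H3K36me3 at 1.26, 1.52, 0.530 and 0.399. *ECM33* had 2.04 and 0.641 at 60 min against 4.78 and 2.04 at 0 min. *RCO1*, a subunit of the Rpd3S deacetylase that overlaps another annotated gene, was the only other gene with H3K4me3 under 50%, at 0.721 against 2.12, and its H3K36me3 was 0.399 against 0.585.

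Of the genes starting at or above the median of both marks, 6 were taken for the highest H3K4me3 minus H3K36me3 relative change. In these, H3K36me3 ended far under its 0 min level, which the choice favours. *NAB2* (chrVII:278946-280523), a poly(A) RNA-binding protein, showed 5.82, 5.76, 5.48 and 5.23 in H3K4me3 beside 7.08, 1.89, 1.89 and 1.45 in H3K36me3. *BUD23* (chrIII:210718-211545), an rRNA methyltransferase, read 7.38, 7.75, 7.80 and 7.50 for H3K4me3 while H3K36me3 read 6.99, 2.88, 2.53 and 2.20. In both genes H3K36me3 was under 50% of its 0 min level from 20 min on while H3K4me3 stayed close to its own, and both still ranked high in the lower mark, at percentiles of 88.3 and 98.0. *SPT8*, a SAGA subunit, *MDJ1*, a mitochondrial chaperone, *DIF1*, a regulator of ribonucleotide reductase, and *CCR4*, a deadenylase, followed, with relative log2 values in H3K36me3 of -1.18, -1.15, -1.10 and -1.03. Chromosome III held 10 of the 70 genes with H3K4me3 held and H3K36me3 under 50% (14.3%) and 2.56% of the genes past the filter. Each mark taken singly was also shifted there. Of its 119 genes past the filter 22 held H3K4me3 and 33 had H3K36me3 under 50%, beside 11.1% and 17.7% of all. Of the 10, *BUD23*, *ARE1*, *YCR051W* and *RSC6* lie close together, and *SOL2*, *PAT1*, *AHC2* and *ABP1* farther along the chromosome. These places were noticed after the values were seen.

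Other genes ended with H3K36me3 above its 0 min level and H3K4me3 below. *CLN1* (chrXIII:662644-664284), a G1 cyclin, had H3K4me3 levels of 4.97, 4.65, 4.75 and 4.34, with H3K36me3 at 1.14, 1.48, 1.71 and 1.44. *COX4*, a subunit of cytochrome c oxidase, had 4.53 and 1.51 at 60 min against 5.27 and 1.22, and *RPS22B* had 7.64 and 2.49 against 7.89 and 1.96. *LIP5*, lipoic acid synthase, *NOP14*, a small ribosomal subunit assembly factor, and *MRPL16*, a mitochondrial ribosomal protein, also ended that way. In none of these 6 genes was H3K4me3 under 50% of its 0 min level, as it was in only 0.129% of all genes past the filter.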

How the data were processed

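The deposited table gives the authors' signal value for every gene in 8 columns, which cover each mark at each time. The columns name no library type and were taken as the immunoprecipitated libraries (8 of 16, the others being input, not used here). Bowtie2, SAMtools and bedtools with the builds sacCer3 and ASM294v2 are named, per the submitters' processing notes. Tool versions were not given in the sources used here, and neither is any division of the signal by input, gene length or spike-in. Immunoprecipitation used antibodies against each mark, per the labels' protocols.

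Of 5222 lines, 3 were blank and 1 had no values. The RefSeq gene table for R64, the same assembly as sacCer3, held 5115 of the gene names and lacked 103. LEU2 and URA3 are not analysed here.

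Percentiles were ranks within a library over 5218 genes. Log2 changes used a pseudocount of 1% of the mark's 0 min median, which is 0.0491 in H3K4me3 and 0.0108 in H3K36me3, and this understates changes at low levels. No test was made, since there is 1 library per mark and time. Python 3.11.15 with pandas 2.3.3, NumPy 2.4.6 and Matplotlib 3.10.9 was used, and the steps were tested on simulated data.

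Genes were named by a rule. It took the 8 genes highest in both marks by the smaller percentile, the 8 lowest by the larger one, the 8 with the widest difference in each direction and the 5 with the highest level of each mark. Of the genes past the filter that began at or above the median of both marks it took the 6 most extreme by relative change in each of 4 senses. From each list it took the 3 members at the extremes. Genes outside the rule were chosen after their values were seen. The members, lists and rule were chosen with earlier results of these data known. Alternatives covered the pseudocount, the filter, scaling, times, overlapping genes, gene length, R64 entries and the chromosome XI stretch.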

Additional observations from a re-analysis of the deposited data

How the results depend on the processing

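No paired analysis was possible because there is 1 library per mark and time. Of 99 summary values under another setting, 64 held within the limits used (0.05 in rho, 1.5 times in a count) and 35 did not. Pearson's r of log2 levels was 0.596. The class with H3K4me3 high and H3K36me3 low held 5 genes with the top and bottom 20% and 7 with percentiles taken within length, the latter chosen after seeing the data, as were the settings with R64 genes only and without the chromosome XI stretch, under which every summary value held. Of 46 list medians, 10 moved by more than 5 percentile points with percentiles within length, 10 at 40 min and 1 without the stretch. The counts against 0 min, in the order H3K4me3 held, H3K36me3 held, both held, H3K4me3 held with H3K36me3 under 50%, H3K4me3 under 50%, H3K36me3 under 50% and both under 50%, were 3604, 2059, 1702, 32, 1, 61 and 0 with libraries scaled to the lowest 5% of genes, and 2191, 2381, 1265, 15, 2, 43 and 0 with column sums. They were 1037, 928, 327, 1, 3, 41 and 2 with 20 min in place of 0 min, and 2288, 692, 373, 118, 0, 232 and 0 with 40 min in place of 60 min. A pseudocount of 10% gave 3, 497 and 2 for the last 3, and 302 genes held H3K36me3 without a filter. The direction turned for BUD23 in H3K4me3 and CLN1 in H3K36me3 against 20 min, at -0.047 and -0.038, and for GLN1 in H3K36me3 at 40 min, at -0.084. The cause was not tested, though a scaling moves all genes of a library together and an unfiltered count takes in more genes. Without read counts the depth behind low levels is unknown.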
